A study of Arabidopsis thaliana with 28 samples.

Results

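The miR170 and miR171 family of Arabidopsis thaliana was followed in seedlings of the Col-0 wild type given either abscisic acid (ABA), a plant hormone made under drought and in dormant seeds, or ethanol as a mock. The members were all entries of the deposited miRNA table whose names begin with ath-miR170 or ath-miR171, which gave 8 of 421 entries: the 5p and the 3p arm of MIR170, MIR171a, MIR171b and MIR171c. Seedlings of both treatments were collected at 0.5, 1, 3, 6, 9, 12 and 24 h, with 2 libraries in each of the 14 groups and 28 libraries in all, and all groups were wild type. The dose of ABA is not given in the sources used here, and a table of miRNAs holds no protein-coding marker by which to check the tissue. Whole seedlings were used, so fewer cells of a type and less RNA per cell cannot be told apart in any value below.

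A miRNA is cut from a hairpin precursor as a duplex of a 5p and a 3p strand, and usually one of them, the guide, is kept by an ARGONAUTE protein to find mRNAs by base pairing. In this family the guide is the 3p strand. It directs cleavage of mRNAs of the HAIRY MERISTEM (HAM) genes, which code for SCARECROW-LIKE transcription factors of the GRAS family that maintain shoot meristems and restrain chlorophyll synthesis. The opposite 5p strand of MIR171a has been reported in Arabidopsis as active too, against the histone methyltransferase gene SUVH8.

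The sequences are shown first because they decide which entries can be told apart. All 8 members matched a mature miRNA by name in RefSeq (assembly TAIR10.1), from which the sequences were read. Each is 21 bases long and is written 5′ to 3′ as DNA, with bases 2 to 8, the seed, in capitals.
ath-miR170-3p: tGATTGAGccgtgtcaatatc
ath-miR171a-3p: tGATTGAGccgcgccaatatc
ath-miR171b-3p: tTGAGCCGtgccaatatcacg
ath-miR171c-3p: tTGAGCCGtgccaatatcacg
ath-miR170-5p: tATTGGCCtggttcactcaga
ath-miR171a-5p: tATTGGCCtggttcactcaga
ath-miR171b-5p: aGATATTAgtgcggttcaatc
ath-miR171c-5p: aGATATTGgtgcggttcaatc
The 8 entries thus hold 6 distinct sequences. Among the guides, ath-miR170-3p and ath-miR171a-3p share a seed and differ by T12C and T14C, counted from the 5′ end with the base of ath-miR170-3p first. The guide of MIR171b and MIR171c is 1 sequence, which starts 3 bases further along and therefore has another seed. MIR170 and MIR171a have 1 identical 5p strand. The 5p strands of MIR171b and MIR171c differ by A8G alone, with the base of ath-miR171b-5p first, and are the entries by which those loci can be told apart.

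The precursors show how the strands lie in each hairpin, with the arms in capitals. MIR170 is annotated at chr5:26411580-26411672 (minus strand), MIR171a at chr3:19073434-19073556 (plus strand), MIR171b at chr1:3961348-3961464 (minus strand) and MIR171c at chr1:22930089-22930204 (minus strand), all on TAIR10.1. Each is a miRNA gene of its own, with 0 other genes annotated across the mature strands.
MIR170: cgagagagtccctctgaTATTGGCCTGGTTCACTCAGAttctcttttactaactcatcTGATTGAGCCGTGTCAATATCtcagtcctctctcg
MIR171a: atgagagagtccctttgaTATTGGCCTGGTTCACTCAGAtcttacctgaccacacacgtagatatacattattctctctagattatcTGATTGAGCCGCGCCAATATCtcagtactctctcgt
MIR171b: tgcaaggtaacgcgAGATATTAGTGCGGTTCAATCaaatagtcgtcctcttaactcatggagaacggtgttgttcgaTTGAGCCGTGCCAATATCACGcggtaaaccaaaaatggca
MIR171c: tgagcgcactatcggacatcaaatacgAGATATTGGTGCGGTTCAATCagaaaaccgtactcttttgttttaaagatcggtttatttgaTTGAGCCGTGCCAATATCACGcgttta
The stretch between the arms is 20 bases in MIR170 and 48, 42 and 41 bases in MIR171a, MIR171b and MIR171c.

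The complementary sites show how the guides differ toward their targets. Among 31464 genes with an annotated mRNA, 3 held the exact complement of ath-miR171a-3p, namely HAM1 (chr2:18619128-18619148), HAM2 (chr3:22411544-22411564) and HAM3 (chr4:58411-58431), each on the minus strand and inside the coding sequence. All 3 carry the same 21 bases, written here with the bases that differ from the exact complement of ath-miR170-3p in capitals.
HAM site: gatattgGcGcggctcaatca
Against this site ath-miR170-3p has 2 mismatches, both G to U pairs, and no other gene came within 3 mismatches of either guide. For the guide shared by MIR171b and MIR171c, HAM1, HAM2 and HAM3 had 3 mismatches each, and 1 further gene, AT3G43156, had 3 as well. For each of the 3 distinct 5p sequences, 0 genes came within 3 mismatches. The gene SUVH8, reported as a target of the MIR171a 5p strand, was thus not returned at this limit, so the search is no full list of targets. G to U pairs were counted as mismatches. At the HAM sites these are T12 and T14 of ath-miR170-3p and T9 of the guide of MIR171b and MIR171c (T is U in RNA). A match is a description of the letters only, and mRNAs were not measured in these libraries.

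The authors' deposited table gives a mean normalised read count for each group. The values of the 2 libraries behind each mean, called a and b here, were recovered for all 8 members in all 28 libraries. The recovered counts of the 362 miRNAs that could be split in every group summed to 120236 to 351475 for a library, and the full depth is unknown. Within the family the counts ran from 26 reads, for ath-miR171c-5p, to 10070 reads, for ath-miR171a-5p. Whether both libraries of a group stem from separate cultures is not given, and the p-values then cover the spread between these libraries alone, which may be technical. Mock library b of 3 h stood apart in this family: ath-miR170-3p was at 2013 there against 820 in library a, and ath-miR171a-5p at 3560 against 5607. Over miRNAs with a mean of at least 10, libraries a and b of this group differed on the log2 scale with an SD of 0.64, the highest of the 14 groups; the lowest SD was 0.31. Results that rest on 3 h are therefore also given without this library.

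The levels were compared on 1 scale for all 28 libraries (joint median-of-ratios scaling, called jointly scaled counts), and since all strands are 21 bases long no correction for length was needed. The shared 5p strand, listed as ath-miR171a-5p, was the most abundant with 6267 ± 1257 (SD, n = 28 libraries). It was followed by the guides ath-miR171a-3p with 3186 ± 700 and ath-miR170-3p with 893 ± 298, and by the shared guide of MIR171b and MIR171c, listed as ath-miR171c-3p, with 320 ± 70.3. The 5p strands ath-miR171b-5p and ath-miR171c-5p were lowest, with 100.4 ± 24.4 and 63.0 ± 23.1. The shared 5p sequence was thus above both guides it is paired with, and ath-miR171b-5p and ath-miR171c-5p were below theirs. These are levels of sequences and give no strand order for a single locus, since each pair holds a shared sequence. The order of neighbours held in all 28 libraries for ath-miR171a-3p over ath-miR170-3p, for ath-miR170-3p over ath-miR171c-3p and for ath-miR171b-3p over ath-miR171b-5p. The 5p strand listed as ath-miR170-5p exceeded ath-miR171a-3p in 27 of 28 libraries, and the exception was mock library b of 3 h, with a ratio of 0.732. The strand ath-miR171b-5p exceeded ath-miR171c-5p in 22 of 28 libraries, and the 6 libraries with the other order were all among the 14 ABA libraries. These last neighbours therefore kept 1 order in all 14 mock libraries but not in the ABA libraries.

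Entries of identical sequence were listed with nearly the same counts. The count of ath-miR170-5p was below that of ath-miR171a-5p in 28 of 28 libraries, by 0.501% to 1.49%, and that of ath-miR171b-3p was below that of ath-miR171c-3p in 28 of 28, by 0.694% to 5.98%. Reads of the shared strands cannot be given to 1 locus, and the 2 rows of a shared sequence are not separate measurements. Whether such a read was counted in both rows or divided between them is not given. If divided, the level of a shared sequence would be the sum of its rows, and the levels, ratios and shares printed here that use these sequences would differ accordingly.

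**Figure D1:**
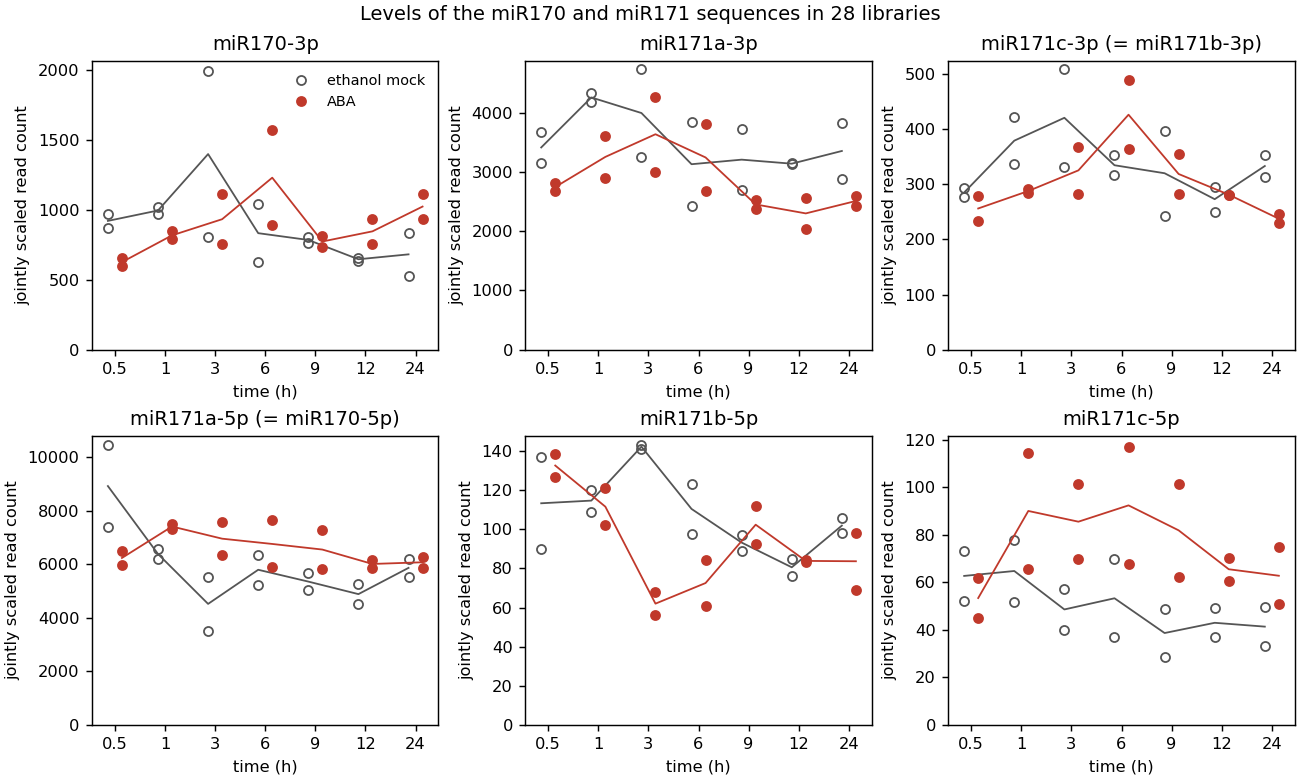
Jointly scaled read counts (y axes, from 0) of the 6 distinct sequences at each time (x axes, h); each point is 1 library, open for mock and filled for ABA, and lines join the group means. The open point of ath-miR170-3p near 1990 at 3 h is mock library b, and for ath-miR171b-5p both ABA points lie below both mock points at 3 h.

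Which members ABA changed over the whole course was asked by averaging the differences, ABA minus mock, of the 7 times, as log2 of the normalised count plus 1, fitted with limma over 357 miRNAs. The 5p strand of MIR171c rose, and the guide ath-miR171a-3p and the 5p strand ath-miR171b-5p fell. The other 5 entries did not pass, so the family did not move in 1 direction. Of 8 members 3 (37.5%) had an adjusted p under 0.05, of which 1 was raised and 2 were lowered, while 47.3% of all tested miRNAs passed, 22.7% raised and 24.6% lowered. Both pairs of rows with identical sequence are among the 5 that did not pass. Counted over the 6 distinct sequences, the share of the family is therefore higher. The median log2 difference was -0.06 over the members and -0.04 over all tested miRNAs, so neither the count nor the median sets the family apart.

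Among the guides, ath-miR171a-3p, the one with the exact complement in HAM1, HAM2 and HAM3, had jointly scaled counts from 2421 to 4733 in mock with a median of 3460 (n = 14 libraries). In ABA they ran from 2038 to 4270 with a median of 2673 (n = 14). The ranges overlap across times, and the ABA median lies below the mock median. The log2 difference was -0.29 (SE 0.10, limma adjusted p = 0.0161), a level 1.23-fold lower under ABA, with a negative sign at 6 of 7 times. At 5 of 7 times, namely 0.5, 1, 9, 12 and 24 h, both ABA libraries lay below both mock libraries, which held for 26.3% of all pairs of a tested miRNA and a time. Without mock library b of 3 h the difference was -0.25 (adjusted p = 0.0326).

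The guide ath-miR170-3p did not pass, with a log2 difference of 0.02 (SE 0.12, limma adjusted p = 0.909) and a 95% interval from -0.23 to 0.28. Its mean hid values on both sides of 0, described by time below. The guide of MIR171b and MIR171c was at -0.15 under the name ath-miR171c-3p (SE 0.09, adjusted p = 0.206) and at -0.14 under ath-miR171b-3p, with an interval from -0.33 to 0.04 for the former. A change of this guide was thus not shown, and the interval still includes a fall of the size of that of ath-miR171a-3p.

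Among the 5p strands, ath-miR171c-5p had jointly scaled counts from 28.4 to 77.9 in mock with a median of 49.2, and from 45.0 to 117 in ABA with a median of 68.6 (n = 14 libraries each). The ABA level was 1.49-fold higher, a log2 difference of 0.58 (SE 0.16, limma adjusted p = 0.00454), with a positive sign at 6 of 7 times. Both ABA libraries lay above both mock libraries at 3 of 7 times, 3, 9 and 12 h, against 25.3% of all pairs of a miRNA and a time. The nearly identical ath-miR171b-5p had jointly scaled counts from 76.3 to 143 in mock with a median of 102, and from 56.2 to 139 in ABA with a median of 88.5. Its log2 difference was -0.25 (SE 0.09, adjusted p = 0.0286), with a negative sign at 4 of 7 times. This call was lost in 8 of 28 fits with 1 library left out (library b of mock at 0.5, 6 or 12 h and of ABA at 1, 3, 6 or 9 h, and library a of ABA at 24 h, with adjusted p up to 0.0643), and in the limma fit of the 7 log2 ratios of deposited group means (-0.25, adjusted p = 0.303). The shared 5p strand of MIR170 and MIR171a was at 0.17 under both names (SE 0.09, adjusted p = 0.128 and 0.130), above 0 at 6 of 7 times, without passing. Without mock library a of 3 h it was at 0.22 under both names. Without mock library b of 3 h it was at 0.12 as ath-miR170-5p.

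**Figure D2:**
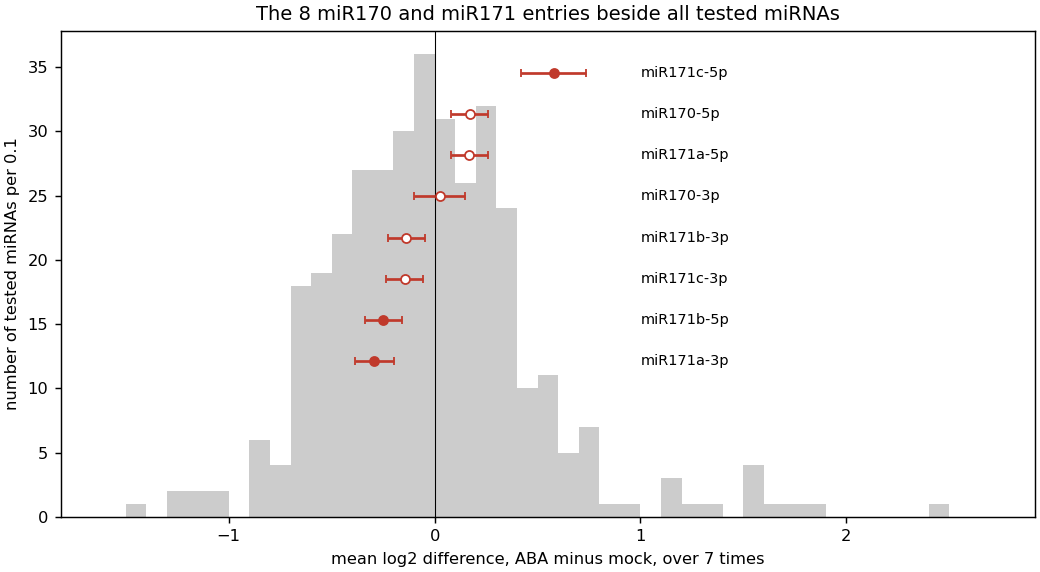
Mean log2 difference, ABA minus mock, over 7 times (x axis) for all 357 tested miRNAs as a histogram (y axis, number of miRNAs per bin of 0.1), with the 8 members as points with SE bars, filled where the adjusted p was under 0.05. The members lie within the body of the distribution, from -0.29 for ath-miR171a-3p to 0.58 for ath-miR171c-5p; the height of a point has no meaning.

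By time, the clearest difference was that of ath-miR171b-5p at 3 h. Its normalised counts were 66.5 and 56.3 in the ABA libraries and 146 and 143 in the mock libraries. Both groups were tight and did not overlap, and mock library b did not stand apart for this strand. Such separation with ABA lower held for 26.3% of all pairs of a tested miRNA and a time. The ABA level was 2.34-fold lower, a log2 difference of -1.22 (SE 0.24, limma adjusted p = 0.00244), and this was the 1 member of 8 that passed at 3 h, where 6.72% of all tested miRNAs passed and 2.52% did so with ABA lower. Without mock library b the difference was -1.24 (adjusted p = 0.0317). With only the 4 libraries of 3 h to estimate the spread, the adjusted p was 0.122, and in the authors' deposited table it was 0.413.

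The values of ath-miR171b-5p at the neighbouring times show how the difference ran. At 6 h the ABA libraries had 72.1 and 51.9 against 84.1 and 104 in mock, again without overlap, and the log2 difference was -0.60 (SE 0.24, adjusted p = 0.124). At 1 h the ABA libraries had 147 and 126 against 144 and 132 in mock, and at 9 h 109 and 87.7 against 86.4 and 94.0, so the groups overlapped before and after. At 12 h the difference was 0.08. At 24 h it was -0.31, with both ABA libraries below both mock libraries, and neither passed.

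For ath-miR171c-5p no single time passed. The difference was highest at 9 h, with 60.4 and 96.0 in ABA and 47.2 and 27.5 in mock, and a log2 difference of 1.06 (SE 0.41, limma adjusted p = 0.0869), where 13.2% of all tested miRNAs passed and 0 of 8 members. At 6 h the ABA libraries had 57.9 and 99.8 and the mock libraries 31.7 and 58.5, which overlap narrowly. At 0.5 h, the only time with a negative sign, the ABA libraries had 63.5 and 46.9 and the mock libraries 55.9 and 77.3.

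The guide ath-miR170-3p lay on opposite sides of mock early and late. At 0.5 h its normalised counts were 676 and 621 in ABA and 1038 and 923 in mock, a log2 difference of -0.59 (SE 0.32, limma adjusted p = 0.287). At 24 h they were 888 and 990 in ABA and 767 and 491 in mock, a difference of 0.61 (SE 0.32, adjusted p = 0.176). Leaving out 1 library gave -0.68 to -0.51 at 0.5 h. At 24 h it gave 0.29 without mock library b and 0.93 without mock library a. The groups did not overlap at either time, yet neither difference passed. A change of the response between times did not pass either (F test of the interaction, adjusted p = 0.273). Without mock library a of 3 h, the difference spanned 1.76 on the log2 scale between its lowest and its highest time. That fit keeps mock library b, which stood apart, as the only mock library of 3 h. Without mock library b the span was the same as with all libraries. At 3 h the difference was -0.50, 0.15 without mock library b and -1.15 without mock library a, where it passed (adjusted p = 0.0196).

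The shared 5p strand was lower at 0.5 h and higher at 3 h under ABA, without passing at either time. At 0.5 h ath-miR171a-5p had 6705 and 6222 normalised counts in ABA and 7932 and 11064 in mock, a log2 difference of -0.54 (SE 0.24, limma adjusted p = 0.158). At 3 h it had 6230 and 7583 in ABA and 5607 and 3560 in mock, a difference of 0.62 (SE 0.24, adjusted p = 0.111). The groups did not overlap at either time. Of all pairs of a tested miRNA and a time, 26.3% had both ABA libraries below both mock libraries, and 25.3% above. The difference at 3 h was 0.29 without mock library b and 0.95 without mock library a, where it passed (adjusted p = 0.0196).

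At 0.5, 1, 6, 9, 12 and 24 h, 0 of 8 members passed the limma test. Of all tested miRNAs 7.28%, 9.24%, 7.84%, 13.2%, 10.4% and 21.3% passed at these times, at an adjusted p under 0.05. An unadjusted p under 0.05 was reached by 2, 0, 1, 1, 0 and 0 members. No share over all miRNAs is given for these counts, and nothing about the family is read from them. The 2 members at 0.5 h are the rows of the shared 5p strand and not separate measurements. At 12 h the authors' deposited table called 2 of the 8 members and 24% of its miRNAs: ath-miR171a-3p with a log2 ratio of -0.43 (authors' adjusted p = 0.00684) and ath-miR170-5p with 0.32 (authors' adjusted p = 0.0485). The identical ath-miR171a-5p stood just above the threshold in the authors' deposited table, with a ratio of 0.32 and an adjusted p of 0.0534. At 0.5, 1, 3, 6, 9 and 24 h the authors' deposited table called 0 of 8 members, and 11.2%, 4.65%, 0.246%, 3.87%, 5.39% and 15.3% of its miRNAs. With only the 4 libraries of 12 h, ath-miR171a-3p passed at -0.44 (limma adjusted p = 0.0192) and ath-miR170-3p at 0.40 (adjusted p = 0.0149), while 28.6% of all tested miRNAs passed in that fit.

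**Figure D3:**
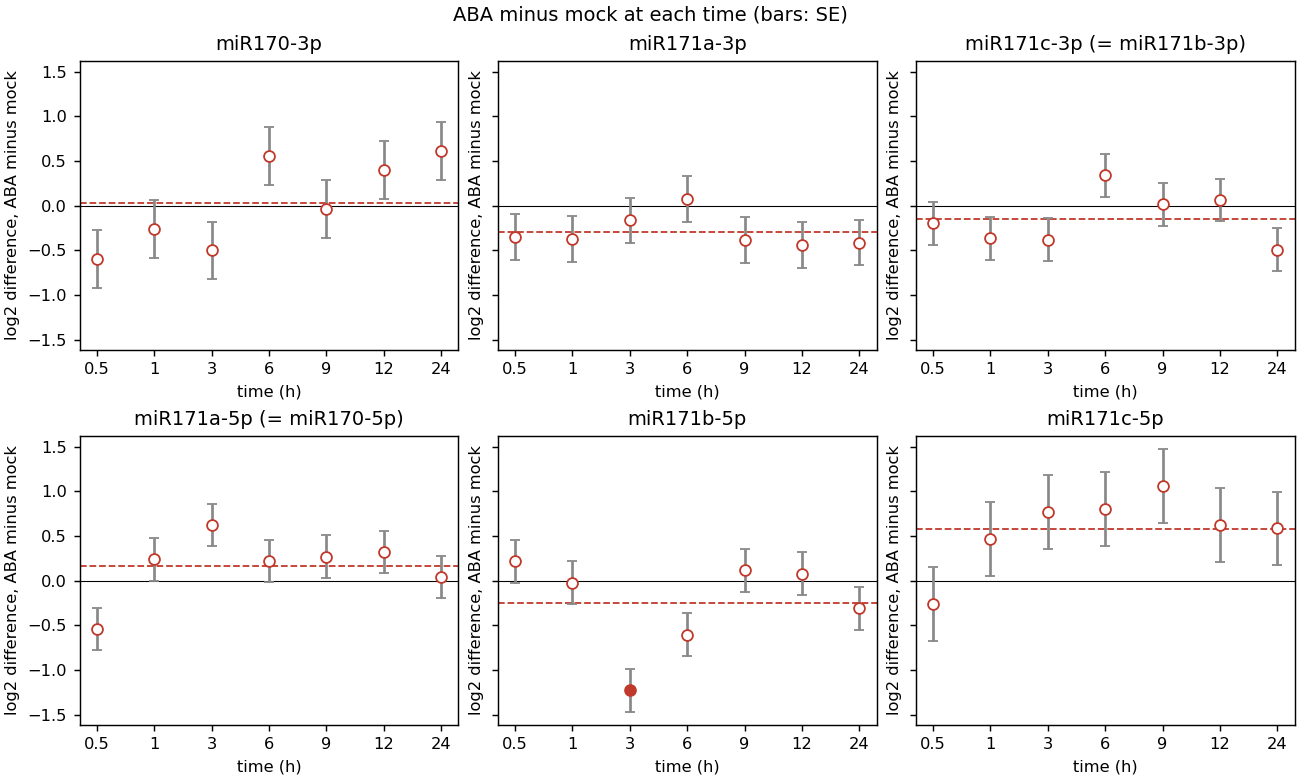
Log2 difference, ABA minus mock (y axes), of the 6 distinct sequences at each time (x axes, h), with SE bars; a filled point passed at an adjusted p under 0.05, and the dashed line is the mean over 7 times. Only ath-miR171b-5p at 3 h is filled, at -1.22, and ath-miR170-3p goes from -0.59 at 0.5 h to 0.61 at 24 h.

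Whether the response differed between times was tested by the interaction of treatment and time. It called 0 of 8 members and 6.72% of all tested miRNAs at an adjusted p under 0.05 in limma. An unadjusted p under 0.05 was reached by 1 member, for which no share over all miRNAs is given. The member closest to the threshold was ath-miR171b-5p, whose difference spanned 1.44 on the log2 scale between its lowest and its highest time (adjusted p = 0.0551). Along the mock course 0 of 8 members passed at an adjusted p under 0.05 in limma, against 14.5% of 358 tested miRNAs. At an unadjusted p under 0.05, again without a share over all miRNAs, there were 2 members. These were the rows of the shared 5p strand, whose group means spanned 1.01 and 1.00 (adjusted p = 0.0630 and 0.0656). Along the ABA course 1 of 8 changed, ath-miR171b-5p, whose group means spanned 1.09 (adjusted p = 0.0290), also against 14.5%. That call was lost in 6 of 28 fits with 1 library left out (ABA library a or b of 0.5 or 12 h, library a of 1 h or library b of 3 h, with adjusted p up to 0.103). The shared 5p strand spanned only 0.30 along the ABA course (adjusted p = 0.885 as ath-miR171a-5p).

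The arms were also compared within each library, by the ratio of 5p to 3p with 1 added to each normalised count. The ratio rose under ABA for MIR171a and MIR171c, and no change was shown for MIR170 or MIR171b. Each ratio holds a sequence shared with another locus, so none is that of a single hairpin. For these 4 ratios and 3 comparisons between 5p strands, treatment labels were permuted exactly within each time, two-sided, with p-values adjusted over the 7 tests.

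For MIR171a the shared 5p strand was 0.744 to 3.31 times as abundant as ath-miR171a-3p in mock, with a median of 1.63, and 1.77 to 3.02 times in ABA, with a median of 2.28 (n = 14 libraries each). The ratio was 1.38-fold higher under ABA, a log2 difference of 0.46 (SE 0.14, exact permutation adjusted p = 0.00688), and it was higher at 6 of 7 times. Without mock library b of 3 h the difference was 0.38 (exact permutation adjusted p = 0.00934). Since MIR170 gives the same 5p strand, this ratio is not that of 1 hairpin alone. For MIR170, the same 5p strand over ath-miR170-3p had a median ratio of 6.77 in mock and 7.96 in ABA, a log2 difference of 0.15 (SE 0.19, exact permutation adjusted p = 0.508), higher at 4 of 7 times, and 0.01 without mock library b of 3 h.

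For MIR171c, whose 5p strand is its own, the ratio of ath-miR171c-5p to the shared guide ran from 0.0965 to 0.266 in mock with a median of 0.126. In ABA it ran from 0.164 to 0.394 with a median of 0.245 (n = 14 libraries each). It was 1.65-fold higher under ABA, a log2 difference of 0.72 (SE 0.16, exact permutation adjusted p = 0.0034), and higher at 6 of 7 times. The difference lay between 0.65 and 0.80 whichever library was left out. Since MIR171b gives the same guide, this ratio is not that of a single hairpin either. For MIR171b, ath-miR171b-5p over the same guide had a median ratio of 0.325 in mock and of 0.32 in ABA, a log2 difference of -0.11 (SE 0.13, exact permutation adjusted p = 0.508). The ratio was lower by 0.87 at 3 h and by 0.95 at 6 h and above mock at the other 5 times, by 0.01 to 0.40, on the log2 scale.

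**Figure D4:**
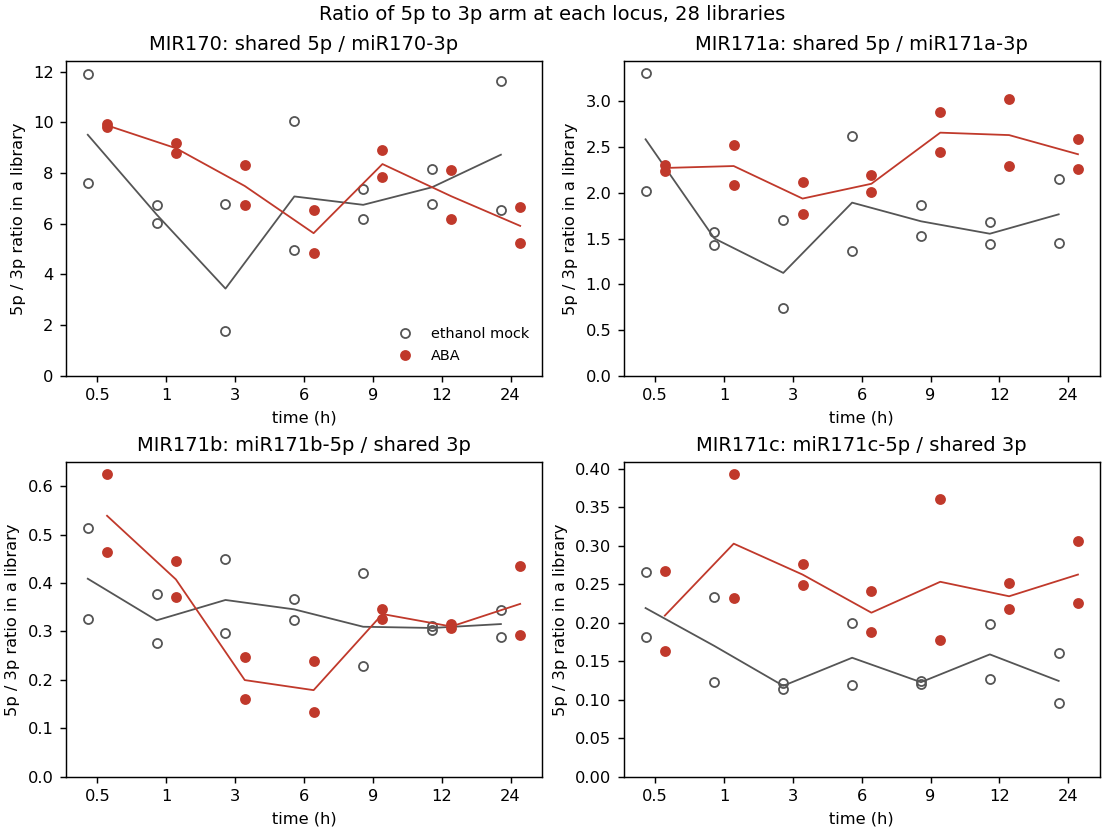
Ratio of 5p to 3p normalised counts, with 1 added to each (y axes, from 0) at each time (x axes, h) for the 4 loci; each point is 1 library, open for mock and filled for ABA, and lines join geometric means. For MIR171c the ABA medians lie higher (0.245 against 0.126), and for MIR171b the filled points drop at 3 and 6 h.

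The 5p strands of MIR171b and MIR171c, which differ by 1 base, differed in their response. The ratio of ath-miR171c-5p to ath-miR171b-5p had a median of 0.475 in mock and 0.825 in ABA, a log2 difference of 0.83 (SE 0.20, exact permutation adjusted p = 0.00688), higher at 6 of 7 times. The ratio of ath-miR171c-5p to ath-miR171a-5p also rose, by 0.41 on the log2 scale (SE 0.17, exact permutation adjusted p = 0.0197), higher at 7 of 7 times, but 5 of 28 exact permutation tests with 1 library left out lost that call (libraries b at 1 h in mock and a at 3 h in mock, and b at 1, 3 and 6 h in ABA, with adjusted p up to 0.0686). The ratio of ath-miR171a-5p to ath-miR171b-5p was higher by 0.42 without passing (SE 0.12, exact permutation adjusted p = 0.0602), at 6 of 7 times. The count of ath-miR171c-5p was low, from 26 to 123 reads a library, and its ratios carry that counting error.

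The makeup of the guide pool, described here without a test, moved with time and treatment. Among the reads of the 3 distinct 3p sequences, ath-miR171a-3p held a median of 74.7% in mock and 69.2% in ABA. At 12 h its share was 77.1% and 77.6% in the mock libraries and 66.3% and 67.8% in the ABA libraries, and at 24 h 76.3% and 77.4% against 65.9% and 67.3%. The share of ath-miR170-3p was 15.6% and 16.2% in mock and 24.6% and 24.8% in ABA at 12 h, and 14.2% and 16.7% against 25.9% and 28.3% at 24 h. At these times the 2 treatments did not overlap in either share. At 0.5 h the order was the opposite, with 73.3% and 74.4% of ath-miR171a-3p in mock and 75.3% and 76.0% in ABA. At 3 h the share was also higher in both ABA libraries, with 74.3% in each, against 74.1% in mock library a and 65.4% in mock library b, so that without library b the treatments were nearly level. The guide of MIR171b and MIR171c held 5.82% to 10.2% of these reads in all 28 libraries.

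Other miRNAs of similar course are given as a description, by Pearson's r over the 14 group means of jointly scaled log2 counts, among 281 miRNAs outside the family with a mean of at least 10. The groups share libraries and scaling, so r holds for these libraries only. For ath-miR171c-5p the most alike were miR397a (r = 0.91), miR398c-3p (r = 0.88) and miR398b-3p (r = 0.88), which target laccases and copper superoxide dismutases, and the latter pair share their sequence. For ath-miR171a-3p they were miR846-3p (r = 0.88), miR852 (r = 0.85) and miR160a-3p (r = 0.80). For the shared 5p strand they were miR164b-3p (r = 0.79), miR861-3p (r = 0.73) and miR5666 (r = 0.72). For ath-miR170-3p, miR169k (r = 0.64), miR169h (r = 0.62) and miR169m (r = 0.62) came closest. For ath-miR171c-3p they were miR172c (r = 0.67), miR775 (r = 0.63) and miR169k (r = 0.63), and for ath-miR171b-5p miR5012 (r = 0.68), miR3434-5p (r = 0.67) and miR398a-5p (r = 0.58). Within the family, r was -0.05 between ath-miR171a-5p and ath-miR171a-3p, 0.36 between ath-miR170-3p and ath-miR171a-3p, and -0.34 between ath-miR171b-5p and ath-miR171c-5p.

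Related miRNAs were counted in the same mean contrast. The list for phase change (members of miR156, miR157 and miR172, which time the passage from juvenile to adult growth and flowering) had 30 entries, of which 16 could be tested: 1 rose, 4 fell and 11 did not pass in limma, with a median of -0.15. So 31.2% passed, against 47.3% of all tested miRNAs. The largest were miR172a at -0.51 (SE 0.14, adjusted p = 0.00525) and miR172b-5p at -0.50 (SE 0.17, adjusted p = 0.0176). In the shoot meristem list (miR164, miR165, miR166 and miR394), 12 of 21 entries could be tested, of which 4 rose, 1 fell and 7 did not pass, with a median of 0.07, so 41.7% passed. The other 14 and 9 entries of the lists were too abundant for their means to be split into libraries. The largest were miR166e-5p at 0.58 (SE 0.07, adjusted p = 6.05e-07) and miR166b-5p at 0.48 (SE 0.08, adjusted p = 7.56e-05), both passenger strands.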

How the data were processed

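Small RNA libraries of 28 samples were profiled. FastQC, STAR and the TAIR10 genome are named per the submitters' processing notes, whereas their versions, the counter, the annotation and the handling of reads with several loci were not given in these sources. The deposited signal columns are group means of normalised read counts, scaled by the authors within each time, and the deposited p-values are the authors' adjusted values for each time. The means were split into their 2 libraries as whole counts times 2 steps (size factors 0.687 to 1.36), which gave 1 pair of counts for 5318 of 5894 values (90.2%); miRNAs split in every group (362 of 421) were used. The 59 left out had means of at least 6511, so the shares over all tested miRNAs and the list counts lack the most abundant strands. The split, limma and permutation steps were tested on simulated data. limma 3.58.1 (R 4.3.3, eBayes with trend) fitted log2(value + 1) with 1 mean per group over miRNAs with at least 1 in at least 2 libraries, two-sided, with Benjamini-Hochberg adjustment over all tested miRNAs and a threshold of 0.05. Time courses and levels used size factors over all 28 libraries. Libraries a and b are ordered by size factor and carry no replicate number. All 8 members were named, with the 3 most alike miRNAs of each sequence and the 2 largest calls of each list. Members, lists and tests were chosen with earlier results of these data known. Names were joined to RefSeq TAIR10.1, and no position was carried between builds. The alternatives tried were other pseudocounts, filters and scalings, the deposited means, single times and leaving out each library.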

Additional observations from a re-analysis of the deposited data

How the results depend on the processing

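No paired analysis was possible because the deposited columns are group means and the recovered libraries carry no replicate number. No value that passed with all 28 libraries and the settings given in the methods changed sign under any alternative tried. At 3 h ath-miR170-3p, which did not pass there, was at -1.15 without mock library a, where it passed, and at 0.15 without mock library b. In the mean contrast 3 members passed, 2 to 3 under the 6 other settings and 2 to 5 with 1 library left out, with 5 only without mock library a of 3 h, where 46.8% of all tested miRNAs passed. Of all tested miRNAs 47.3% passed in the mean contrast with all 28 libraries. Under the other settings the share ran from 27% with the deposited group means, where 2 members passed, to 55.2% with at least 10 in at least 2 libraries. Over the 7 single times 1 of 56 pairs of a member and a time passed (1.79%, against 10.8% of all pairs). The count was 2 with only the 4 libraries of each time (3.57% against 13.3%), 2 by the authors' deposited adjusted p (9.25% of all), and 1 to 4 with 1 library left out (7.91% to 12.7% of all). The interaction called 0 members, 1 (miR171b-5p) with no filter on low values, with at least 10 in at least 2 libraries and with median centring, and 0 to 1 with 1 library left out. Of all tested miRNAs 6.91%, 8.39% and 7% passed under those 3 settings, and 5.6% to 9.8% with 1 library left out. The mock course called 0, 2 with at least 10 in at least 2 libraries, both rows of the shared 5p strand (18.7% of all tested), and 0 to 3 with 1 library left out (1.96% to 18.7% of all). The ABA course called 1, and 0 to 1 with 1 library left out (9.78% to 19.0% of all). With 1 library left out, miR171c-5p over miR171a-5p lay between 0.33 and 0.49 and miR171a-5p over miR171b-5p between 0.36 and 0.48, where 3 of 28 fits passed. The causes were not tested. Where a library was left out, the lone library of its group was assumed to vary like the other groups. A pseudocount of 0.1 moved none of the 7 strand ratios across the threshold. The low counts of miR171c-5p, from 26 reads, limit the precision of its values.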
